A study of Mus musculus with 8 samples.

Results

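The 10 genes that code for adenylate cyclases in the mouse, *Adcy1* to *Adcy10*, were followed across the cell types of the iris. They were chosen by gene name, and all 10 were among the 22873 genes counted in each library. Nuclei came from irises, which carried more or less of the adjoining ciliary body, of female albino mice labelled wild type (WT) and aged 6 to 8 weeks. The conditions were untreated, constricted and dilated, and the eye drops were given hourly for the 6.5 hours before collection. The 2 dilated libraries came from mice that received 5% phenylephrine, an alpha-1 adrenergic agonist, with 1% cyclopentolate, a muscarinic antagonist, and were kept in the dark. The 3 constricted libraries came from mice that received 5% pilocarpine, a muscarinic agonist, and were kept in the light. The effects of drug and of lighting cannot be told apart. The 3 untreated libraries received no drops. Each library pooled 5 or 6 irises, and the pools were handled in 5 batches and sequenced in 2 runs.

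Adenylate cyclases make cyclic AMP (cAMP) from ATP. The membrane-bound members are switched on by the G protein subunit Gs-alpha, which receptors such as the beta-adrenergic receptors release, and several are held back by Gi. They differ in their other inputs: *Adcy1*, *Adcy3* and *Adcy8* code for enzymes that calcium and calmodulin stimulate, *Adcy2*, *Adcy4* and *Adcy7* for enzymes that G protein beta-gamma subunits stimulate, and *Adcy5* and *Adcy6* for enzymes that calcium and Gi inhibit. *Adcy9* codes for a member that forskolin barely activates, and *Adcy10* for the soluble enzyme, which bicarbonate and calcium activate. In smooth muscle cAMP acts mainly through protein kinase A and favors relaxation.

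The 8 libraries held 34357 nuclei and 109565284 unique molecular identifiers (UMIs), with 5189437 to 25136427 UMIs per library. UMIs were summed over the nuclei of each of the 10 cell types that the authors named, in each library, and levels are given as CPM, the UMIs of a gene per 1e+06 UMIs of that sum. The mean mitochondrial share per library ranged from 0.0456% to 0.102% and was highest in dilated replicate 1. Untreated replicate 1 and dilated replicate 1 shared 63 cell barcodes, 4.26% of the nuclei of the smaller library, and no other pair of libraries shared more than 18. The labels were set beside marker lists in untreated libraries. For 8 of the 10 cell types the summed level of the type's own list was highest in that type. Several of the markers were chosen by the study on these nuclei, so this is no independent test of the labels. The lists of dilator muscle and sphincter 2, which share *Acta2* and *Myh11* with other smooth muscle, were highest in sphincter 1, at 4600 and 12730 CPM. Of the 5 markers in each of these lists, 2 for dilator muscle and 4 for sphincter 2 were highest in sphincter 1.

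In the mm10 assembly (GENCODE vM21), the longest member gene is *Adcy2*, at chr13:68620043-68999541, and the shortest is *Adcy4*, at chr14:55769057-55784095. *Adcy8* lies at chr15:64697084-64922296, *Adcy10* at chr1:165485183-165576774 and *Adcy6* at chr15:98589973-98610076. Intronic reads were counted, so that a long gene gathers more UMIs, and levels of different members as counted cannot be compared directly. Values per kilobase of gene span are also given, but whether UMIs rise in proportion to span was not tested. UMI totals and shares as counted are given as descriptions of the counts. Gm21798, a gene on the opposite strand, covers 46.5% of *Adcy8* and was counted separately, with 2525 UMIs against 4907 for *Adcy8*. *Cenpo*, also on the opposite strand, overlaps 21.8% of *Adcy3*. How strand was used in the counting is not given in the sources used here.

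The RefSeq table of promoters (GRCm38.p6) held 8 members, without *Adcy6* and *Adcy8*. The 250 bases before the start site are shown for *Adcy10* (chr1:165484933-165485182, plus strand) and *Adcy2* (chr13:68999542-68999791, minus strand), the 2 members with a promoter entry whose transcripts rose with dilation, and for *Adcy9* (chr16:4420499-4420748, minus strand), which was not called between conditions in any cell type. Capitals mark the short cAMP response element TGACG, searched on both strands.
Adcy10: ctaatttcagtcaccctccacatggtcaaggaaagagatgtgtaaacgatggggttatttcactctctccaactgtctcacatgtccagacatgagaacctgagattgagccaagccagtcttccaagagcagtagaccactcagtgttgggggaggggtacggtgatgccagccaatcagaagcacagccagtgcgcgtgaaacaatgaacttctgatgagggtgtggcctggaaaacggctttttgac
Adcy2: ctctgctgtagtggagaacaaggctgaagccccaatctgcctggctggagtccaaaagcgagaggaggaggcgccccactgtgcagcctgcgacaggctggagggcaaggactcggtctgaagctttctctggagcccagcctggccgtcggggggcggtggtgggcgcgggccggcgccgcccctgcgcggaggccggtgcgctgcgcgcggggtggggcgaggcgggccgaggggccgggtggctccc
Adcy9: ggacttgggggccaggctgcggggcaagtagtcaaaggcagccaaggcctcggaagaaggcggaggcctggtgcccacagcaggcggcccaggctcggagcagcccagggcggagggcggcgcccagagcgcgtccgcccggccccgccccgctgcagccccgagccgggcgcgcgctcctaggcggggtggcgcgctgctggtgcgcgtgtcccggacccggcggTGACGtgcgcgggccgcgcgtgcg
Neither the *Adcy10* nor the *Adcy2* window held the full element TGACGTCA, its short form TGACG the AP-1 letters TGACTCA or the EGR letters GCGTGGGCG or GCGGGGGCG on either strand. Of the 32851 promoter windows of this length in the table, 1.55% held the full element, 17.8% the short form, which also lies within the full one, 4.46% the AP-1 letters and 3.06% the EGR letters. The *Adcy9* window held a short form that began 24 bases before the start site. Among the other members with a promoter entry that were not called in the main fit, a window of *Adcy7* also held it. The windows of *Adcy1*, *Adcy3*, *Adcy4* and *Adcy5* did not, like those of *Adcy10* and *Adcy2*. The windows differed in base composition, with 50% G or C and 5 CG pairs in *Adcy10*, 73.2% and 23 CG pairs in *Adcy2*, and 78.8% and 34 CG pairs in *Adcy9*, beside a median of 52.4% G or C over all windows.

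**Figure D1:**
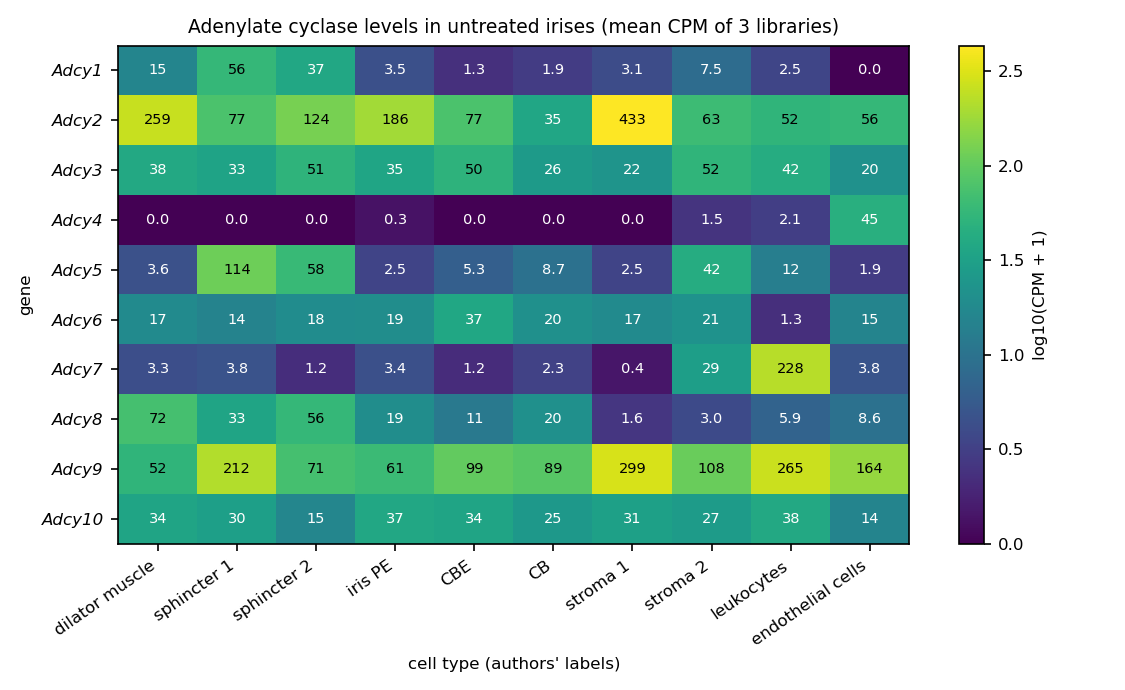
Mean level (CPM) of each adenylate cyclase gene (rows) in each cell type (columns) over the 3 untreated libraries, with the color on a log10(CPM + 1) scale and the mean printed in each cell. Within a row, Adcy7 stands highest in leukocytes, Adcy4 in endothelial cells, Adcy5 and Adcy1 in sphincter 1, Adcy8 in dilator muscle and Adcy2 in stroma 1; levels of different rows also reflect gene length.

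In untreated irises *Adcy7* was highest in leukocytes, *Adcy4* in endothelial cells, *Adcy1* and *Adcy5* in sphincter 1, *Adcy8* in dilator muscle and *Adcy2* in stroma 1. For *Adcy3* and *Adcy10* the highest cell type differed between levels and shares of nuclei. Levels between cell types are given without a test, because the cell types were clustered on the same counts. Among the calcium-stimulated members, *Adcy8* was highest in dilator muscle, at 73.6, 68.8 and 73.4 CPM in the 3 untreated libraries. Sphincter 2 followed at 56.3 ± 30.8 CPM (SD, n = 3) and sphincter 1 at 33.4 ± 12.6, and the ranges of these neighbors overlapped. *Adcy8* was lowest in both stromal types, with 3.0 ± 1.1 CPM in stroma 2 and 1.6 ± 1.8 in stroma 1.

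*Adcy1* was highest in sphincter 1, with 75.3, 46.2 and 46.9 CPM. Sphincter 2 held 55.0, 33.3 and 23.7 CPM, a range that overlapped that of sphincter 1 but lay above that of dilator muscle, at 14.9 ± 6.0 CPM. In the other 7 cell types *Adcy1* averaged 7.5 CPM or less, and in endothelial cells no UMI was found among 681765, which allows up to 4.40 CPM. The 10 means of *Adcy3* ran from 20.5 CPM in endothelial cells to 51.8 ± 4.1 CPM in stroma 2, and every pair of neighbors in that order overlapped. Types further apart did not all overlap. The stroma 2 range (47.1 to 54.9 CPM) lay above those of dilator muscle (30.5 to 44.3), sphincter 1 (21.5 to 40.6) and iris PE (32.6 to 37.5). It also lay above those of CB (23.6 to 29.7), stroma 1 (20.95 to 25.1) and endothelial cells (19.0 to 23.0).

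Of the beta-gamma-stimulated members, *Adcy2*, the longest gene, had 20691 UMIs over the 8 libraries. It stood at 432, 455 and 412 CPM in stroma 1, followed by dilator muscle at 259 ± 30.3 CPM and iris PE at 186 ± 3.2. No library of any of these 3 cell types overlapped with the next type in order. From sphincter 1 at 77.0 ± 4.6 CPM down to CB at 35.3 ± 12.1, each neighbor overlapped with the next.

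*Adcy7* was highest in leukocytes, at 232, 197 and 254 CPM. Stroma 2 came next with 29.4 ± 4.0 CPM, and the other 8 cell types had means of 3.8 CPM or less. *Adcy4*, the shortest gene, had 70 UMIs in all, of which 25 were in endothelial cells and 41 in stroma 2. Its level in endothelial cells was 38.8, 44.3 and 51.8 CPM, from 2, 7 and 9 UMIs, against 1.5 ± 1.3 CPM in stroma 2. Iris PE had 3 UMIs and leukocytes had 1. In dilator muscle no *Adcy4* UMI was found among 41794233, which allows up to 0.0718 CPM, and none was found in sphincter 1, sphincter 2, CBE, CB or stroma 1.

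The calcium-inhibited members differed from each other in their patterns. *Adcy5* was highest in sphincter 1, at 134, 105 and 102 CPM, above sphincter 2 at 58.4 ± 28.8 and stroma 2 at 42.0 ± 7.9 CPM, which overlapped. The other 7 cell types had means of 12.3 CPM or less, and dilator muscle had 3.6 ± 2.3. *Adcy6* was highest in CBE, at 36.6 ± 6.6 CPM, from 11, 22 and 14 UMIs. The CBE range (29.1 to 41.6 CPM) overlapped that of CB (11.6 to 30.4). In the 8 cell types that followed CBE, the means lay between 14 and 21.3 CPM, each type overlapping its neighbor. Leukocytes had the lowest level of *Adcy6*, 1.3 ± 2.2 CPM, from 1 UMI.

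*Adcy9* was present in every cell type. Its 4 highest levels were in stroma 1 (299 ± 20.1 CPM), leukocytes (265 ± 58.4), sphincter 1 (212.5 ± 23.1) and endothelial cells (164 ± 38.8), each overlapping the next, and its lowest was in dilator muscle (52.3 ± 5.8). *Adcy10*, the soluble enzyme, ran from 14.4 ± 16.02 CPM in endothelial cells to 38.0 ± 21.9 in leukocytes, with overlap between all neighbors. Its range in iris PE (30.6 to 43.5 CPM) lay above that in sphincter 2 (9.2 to 25.0).

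**Figure D2:**
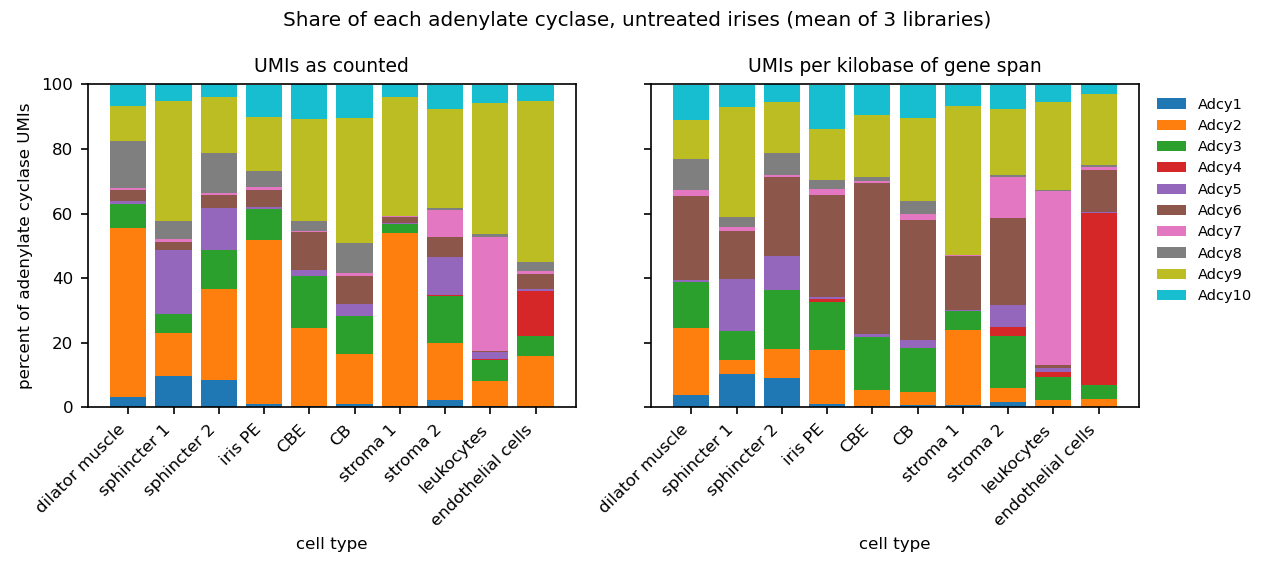
Percent of all adenylate cyclase UMIs (vertical axis) that each of the 10 genes holds in each cell type, as the mean of the 3 untreated libraries, as counted (left) and after division by gene span in kilobases (right). Adcy2 and Adcy9 lead the left bars, while Adcy6 leads 6 of the 10 right bars, Adcy7 leads in leukocytes and Adcy4 in endothelial cells.

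The leading adenylate cyclase of a cell type depended on the length scale. As counted, *Adcy2* held the largest share of the adenylate cyclase UMIs in 4 cell types, with 52.4% ± 4.47 (SD, n = 3) in dilator muscle, 50.9% ± 0.459 in iris PE, 53.5% ± 3.50 in stroma 1 and 28.4% ± 2.36 in sphincter 2. *Adcy9* led in the other 6. Per kilobase of gene span, *Adcy2* led in 0 cell types. On that scale *Adcy6* led in dilator muscle (26.1% ± 3.67, followed by *Adcy2* at 20.7% ± 2.25), sphincter 2, iris PE, CBE, CB and stroma 2. In sphincter 2 it held 24.3% ± 11.7, from 20 UMIs, followed by *Adcy3* at 18.3% ± 3.29. In CB it held 37.4% ± 9.42, from 22 UMIs, followed by *Adcy9* at 25.8% ± 2.69. The ranges of leader and follower overlapped in sphincter 2 and in CB. *Adcy9* led in stroma 1 (46.1% ± 4.38) and sphincter 1 (34.1% ± 3.62), *Adcy7* in leukocytes (54.0% ± 6.61) and *Adcy4* in endothelial cells (53.2% ± 5.04, from 18 UMIs). Neither scale corrects for the unequal capture of introns, so that the shares describe UMIs and not molecules.

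The 10 genes together reached 810 ± 33.0 CPM in stroma 1, the highest sum, and 228 ± 28.3 CPM in CB, the lowest. In dilator muscle the sum was 494 ± 16.96 CPM in untreated, 474 ± 62.5 in constricted and 500 ± 0.5 in dilated libraries. At least 1 adenylate cyclase UMI was found in 76.4% ± 2.26 of untreated dilator nuclei and in 82.0% ± 1.72 of stroma 1 nuclei. *Adcy7* UMIs were found in 38.5%, 37.7% and 41.9% of untreated leukocyte nuclei against 1.98%, 1.15% and 0.480% of dilator nuclei, although leukocyte nuclei were the shallower of the 2 (medians of 1971.5 to 2054.5 against 3344.5 to 3926 UMIs). With each nucleus thinned to 1000 UMIs, the leukocyte shares were 16.7%, 24.2% and 23.9% and those of dilator nuclei at most 0.25%.

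The genes whose patterns were most like those of the members are given for the 9 members with at least 1000 UMIs, by Pearson correlation of log2(CPM + 1) over the 30 sums of 10 cell types and 3 untreated libraries, among 11655 genes. The 30 sums come from 3 libraries and differ in depth. For *Adcy1* these were *Myl9* (r = 0.899), *Dnah5* (0.89) and *Thbs3* (0.888), for *Adcy8* Gm12681 (0.875), *Ccdc60* (0.863) and *Rap1gapos* (0.858), and for *Adcy3* *Nfix* (0.784), *Rims1* (0.72) and *Atl3* (0.717). For *Adcy2* they were *Ahnak2* (0.854), *Sytl2* (0.839) and *Pi4k2b* (0.836), and for *Adcy7* *Vsir* (0.894), *Arsb* (0.865) and *Slc14a1* (0.861). For *Adcy5* they were Gm48003 (0.904), *Klhl26* (0.825) and Gm48006 (0.81), and for *Adcy6* *Pard3* (0.912), *Pccb* (0.882) and *Slc25a40* (0.869). For *Adcy9* they were *Ahr* (0.876), *Nfatc1* (0.865) and *Mef2c* (0.825), and for *Adcy10* 4932443L11Rik (0.888), *Rcor3* (0.867) and *Mief1* (0.863).

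With pupil dilation, 2 members rose in dilator muscle and 2 different members rose in stroma 2. For each cell type, all 8 libraries entered a single edgeR quasi-likelihood fit of the UMI sums with TMM normalization. A gene was called where its log2 fold change exceeded 0.6 in size with a Benjamini-Hochberg adjusted p under 0.05 over all genes tested there. Of 100 combinations of a member and a cell type, 59 had enough UMIs to be tested, and 4 were called between dilated and untreated irises, all of them higher in dilated irises. In dilator muscle 2 of 9 tested members were called, beside 13.3% of all genes tested there. In stroma 2 the count was 2 of 9, beside 1.73% of all genes, and in the other 7 cell types with a tested member it was 0 of 41, beside 1.02%.

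**Figure D3:**
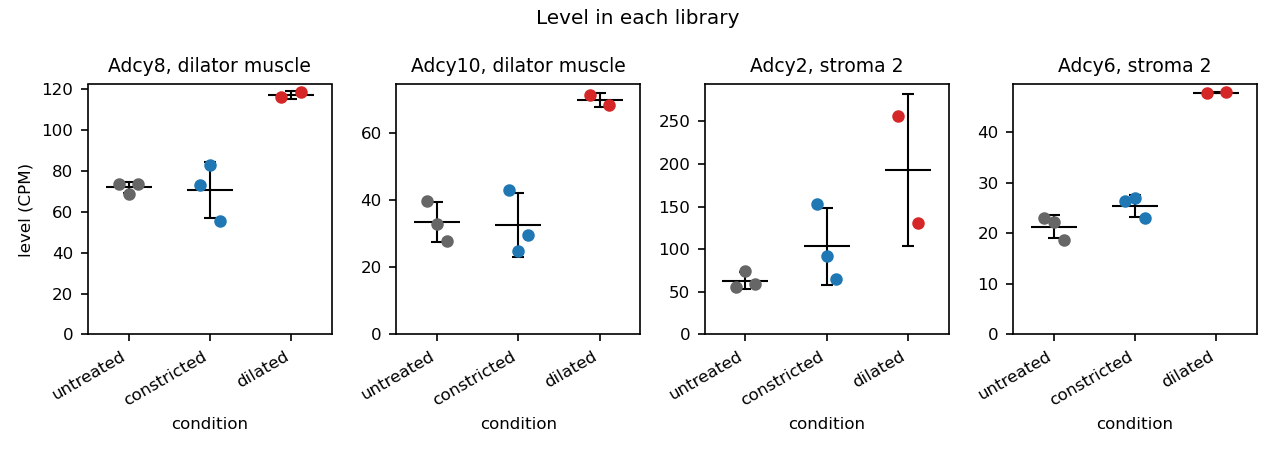
Level (CPM, vertical axis from 0) in each library for the 4 combinations of gene and cell type called between dilated and untreated irises; points are libraries, and the line and bar are the mean and SD of the condition. Adcy8 and Adcy10 in dilator muscle and Adcy6 in stroma 2 lie above all other libraries in both dilated libraries, whereas for Adcy2 in stroma 2 constricted replicate 1 lies above dilated replicate 2.

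*Adcy8*, calcium-stimulated, stood in dilator muscle at 73.6, 68.8 and 73.4 CPM in untreated, 73.2, 82.9 and 55.7 in constricted, and 116 and 119 in dilated libraries. Both dilated libraries lay above all 6 others. The log2 fold change against untreated was 0.90 ± 0.16 (SE, adjusted p = 0.00326) and against constricted 0.92 ± 0.17 (adjusted p = 0.00324). CPM ratios are smaller than these fold changes, since the median gene of dilator muscle was lower by 0.19 (log2) in CPM in dilated libraries, a shift that the TMM normalization removes. *Adcy8* UMIs were found in 22.1%, 16.9% and 18.2% of untreated and 29.1% and 29.9% of dilated dilator nuclei. In stroma 1 nuclei, where the gene was lowest, they were found in 0.0% to 1.1% of untreated and 0.4% to 2.0% of dilated nuclei. After thinning to 1000 UMIs the dilator shares were 6.0%, 5.8% and 6.8% against 9.3% and 9.6%.

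The gene on the opposite strand, Gm21798, was also higher in dilated than in untreated dilator muscle. It stood at 26.2, 33.4 and 30.7 CPM in untreated, 34.5, 64.3 and 25.6 in constricted, and 63.9 and 63.9 in dilated libraries, so that constricted replicate 2 lay above both dilated libraries. The log2 fold change was 1.24 ± 0.29 against untreated (adjusted p = 0.0128) and 0.84 ± 0.29 against constricted (adjusted p = 0.0831). Reads of the pair cannot be told apart without knowledge of how strand was used, and the part of Gm21798 in the *Adcy8* result was not tested.

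*Adcy10*, the soluble enzyme, stood in dilator muscle at 39.9, 32.8 and 27.8 CPM in untreated, 43.2, 24.8 and 29.6 in constricted, and 71.5 and 68.5 in dilated libraries. The dilated libraries again lay above all 6 others. The log2 fold change was 1.28 ± 0.20 against untreated (adjusted p = 0.0012) and 1.26 ± 0.20 against constricted (adjusted p = 0.00165). *Adcy10* UMIs were found in 15.1%, 10.0% and 8.9% of untreated and 22.2% and 19.6% of dilated dilator nuclei, and after thinning in 4.2%, 2.8% and 2.8% against 6.4% and 6.4%.

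The calls of both genes in dilator muscle held under every alternative tried, including each library left out. Within the libraries numbered 2 to 4 in the labels, *Adcy8* was 1.58-fold and *Adcy10* 1.79-fold higher in the dilated than in the untreated library by CPM, and within those numbered 15 to 18 the ratios were 1.67 and 2.26. Mean mitochondrial shares of dilator nuclei were 0.0351% to 0.0438% in untreated and 0.0535% to 0.0885% in dilated libraries. The 5 dilator markers summed to 3756 to 4035 CPM in untreated and 2291 to 2663 CPM in dilated dilator nuclei, and no other marker list followed rose out of its untreated range there except those of lens (1.87 to 2.82 against 1.6 to 11.6 CPM), iris PE (42.1 to 54.9 against 34.5 to 56), CBE (55.6 to 94.1 against 44.1 to 107), endothelial cells (13.9 to 28 against 17.8 to 28.9) and corneal epithelium (0 to 0.623 against 0.401 to 0.888). The part of these values in the *Adcy8* and *Adcy10* results was not tested.

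The other 7 members tested in dilator muscle did not pass the test. The largest of their log2 fold changes against untreated were -0.44 ± 0.41 for *Adcy1* and 0.40 ± 0.57 for *Adcy7*. With the library series as a term *Adcy1* was called, at -0.79 ± 0.25 (adjusted p = 0.0344). For *Adcy2* the value was -0.15 (95% interval -0.55 to 0.26), and for *Adcy9* it was 0.14 (-0.19 to 0.48). The median over the 9 members was 0.14, beside 0.02 for all genes tested.

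In stroma 2, *Adcy2*, beta-gamma-stimulated, stood at 55.6, 74.4 and 59.2 CPM in untreated, 153, 91.5 and 64.9 in constricted, and 256 and 130.2 in dilated libraries. The dilated and untreated libraries did not overlap, but constricted replicate 1 lay above dilated replicate 2. The log2 fold change against untreated was 1.63 ± 0.32 (adjusted p = 0.0234), and against constricted 0.94 ± 0.32 (adjusted p = 0.312). Without dilated replicate 1 the fold change was 1.12 and the call was lost (adjusted p = 0.162). It was also lost without untreated replicates 1, 2 or 3 or constricted replicate 2, with adjusted p of 0.0691, 0.0761, 0.142 and 0.0511. *Adcy2* UMIs were found in 10.9% to 13.5% of untreated and in 33.1% and 21.4% of dilated stroma 2 nuclei.

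*Adcy6*, calcium-inhibited, stood in stroma 2 at 23.0, 22.2 and 18.7 CPM in untreated, 26.4, 26.9 and 23.0 in constricted, and 47.7 and 47.9 in dilated libraries. Both dilated libraries lay above all others. The log2 fold change was 1.22 ± 0.20 against untreated (adjusted p = 0.0102) and 0.95 ± 0.20 against constricted (adjusted p = 0.0675, and 0.0384 with the library series as a term). The call against untreated was lost without untreated replicate 2 (adjusted p = 0.0624) or untreated replicate 3 (adjusted p = 0.116). *Adcy6* UMIs were found in 6.9%, 5.1% and 4.2% of untreated and 12.01% and 10.2% of dilated stroma 2 nuclei.

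Marker lists were followed in stroma 2. Its own 4 markers summed to 5293 to 7041 CPM in untreated and 6221 to 6551 in constricted libraries. Both dilated libraries lay below these, at 4638 and 5260 CPM. The lists of CB (209 to 303 against 273 to 461 CPM, untreated against dilated), sphincter 2 (139 to 253 against 217 to 290) and lens (1.42 to 3.75 against 2.92 to 14.3) rose out of their untreated ranges. So did those of iris PE, sphincter 1, Schwann cells, neurons and corneal epithelium. The 4 stroma 1 markers, where *Adcy2* is highest, summed to 170 to 192 CPM in untreated and 214 to 216 CPM in dilated stroma 2 nuclei, beside 5250 CPM in stroma 1 itself, and of the 4 only *Mitf* lay higher in dilated libraries, while *Sox10* was at 4.53 to 6.04 against 1.17 to 3.5 CPM. The 4 endothelial markers summed to 191 to 250 against 573 to 787 CPM, with *Cldn5* at 99.1 to 132 against 373 to 631 CPM, *Flt1* at 43.6 to 104 against 126 to 172 CPM and *Cdh5* at 0.283 to 1.21 against 0 to 1.62 CPM. The remaining endothelial marker, *Pecam1*, stood at 14.4 to 45.9 against 26.7 to 30.4 CPM. The 5 dilator markers summed to 121 to 239 against 211 to 246 CPM, with *Acta2* at 39.7 to 128 against 139 to 171 CPM. The other dilator markers overlapped or lay lower in dilated libraries. *Myh11* stood at 50 to 72.5 against 27.5 to 77.3 CPM and *Adra1a* at 8.49 to 15.7 against 1.75 to 10.5 CPM. *Chrm2* stood at 11.6 to 12.5 against 8.76 to 11.9 CPM and *Nos1* at 4.53 to 10.9 against 2.34 to 6.74 CPM. Mean mitochondrial shares of stroma 2 nuclei were 0.0523% to 0.0672% in untreated and 0.0728% to 0.101% in dilated libraries. No marker of these lists was at 0 in all 8 libraries, and the part of these values in the *Adcy2* and *Adcy6* results was not tested. With the nuclei that carried a shared barcode left out, an alternative chosen after the values had been seen, the log2 fold changes were 0.90 for *Adcy8* and 1.27 for *Adcy10* in dilator muscle and 1.63 for *Adcy2* and 1.21 for *Adcy6* in stroma 2, and all 4 calls were kept.

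**Figure D4:**
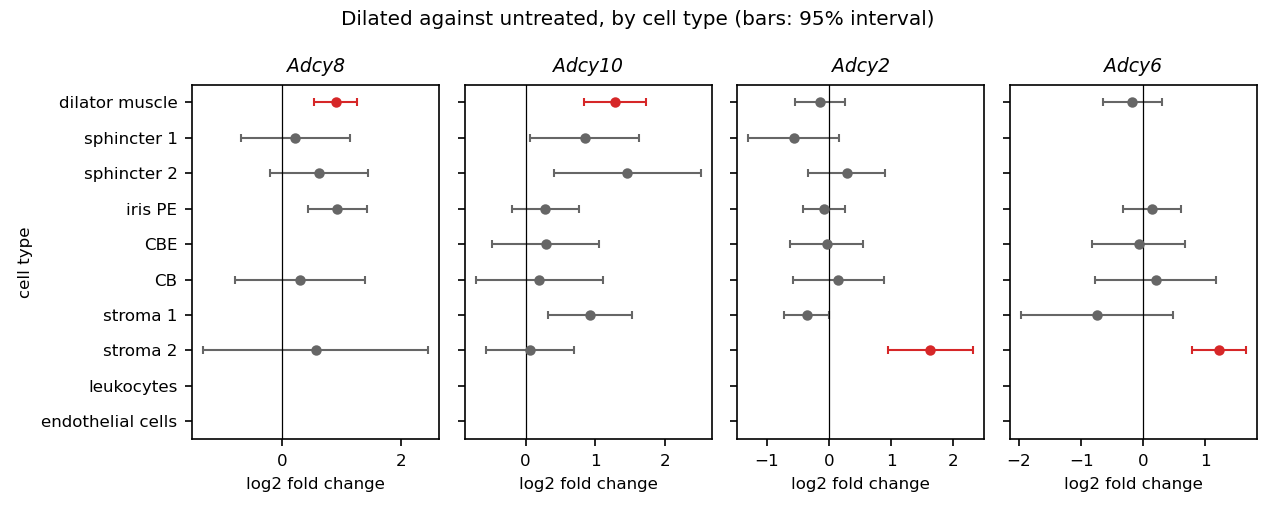
Log2 fold change, dilated against untreated, of Adcy8, Adcy10, Adcy2 and Adcy6 (panels) by cell type (rows), with 95% intervals; red points were called, and cell types without a point had too few UMIs for a test. Adcy8 lies near 0.9 in both dilator muscle and iris PE, while the Adcy2 value in stroma 2 lies apart from those of the other cell types.

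Some of these changes differed between cell types. The difference of the dilation effect between a pair of cell types was tested for all 45 pairs in joint fits with a term for each library, adjusted over all genes of the fit. Members passed in 5 of 75 tests that involved dilator muscle, beside 5.07% of all genes, in 10 of 67 other tests that involved stroma 2, beside 1.7%, and in 1 of 173 tests in the remaining 28 pairs, beside 0.682%. The 10 all concerned *Adcy2* or *Adcy6* and reused the same stroma 2 sums. The 5 with dilator muscle included both of these genes against stroma 2 again. The tests that passed are therefore not separate results. The *Adcy2* effect was larger in stroma 2 than in every other cell type where *Adcy2* could be tested alone. The difference was 1.27 ± 0.29 (log2, SE) against sphincter 2 (adjusted p = 0.01) and 2.00 ± 0.23 against stroma 1 (adjusted p = 3.46e-06). The comparisons with leukocytes and endothelial cells also passed and count among the 10, but rest on 52 and 32 *Adcy2* UMIs over all libraries. *Adcy2* had too few UMIs there for a test alone, and the joint fits filtered both cell types together. Those comparisons therefore cannot decide whether the effects differ.

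*Adcy10* rose more in dilator muscle than in iris PE, where it stood at 43.5, 36.2 and 30.6 CPM in untreated and 37.9 and 47.3 in dilated libraries, and the effect in iris PE was lower by a difference of -0.997 ± 0.16 (adjusted p = 8.77e-05). It also exceeded the effect in stroma 2 (difference -1.15 ± 0.23, adjusted p = 0.00464). Against CBE and CB the differences were -0.92 ± 0.33 and -0.97 ± 0.43, with adjusted p of 0.0904 and 0.286. Against stroma 1, sphincter 1 and sphincter 2 the differences were -0.37 (95% interval -0.95 to 0.20), -0.50 (-1.20 to 0.21) and 0.14 (-0.78 to 1.07). *Adcy10* values in these 3 types were 0.92 ± 0.29, 0.85 ± 0.38 and 1.46 ± 0.51 (log2, dilated against untreated), with adjusted p of 0.128, 0.422 and 0.141.

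For *Adcy8* no difference between dilator muscle and another cell type passed the test. In iris PE the gene stood at 21.7, 18.3 and 15.6 CPM in untreated, 33.5, 36.9 and 24.3 in constricted, and 39.5 and 26.4 in dilated libraries, so that all treated libraries lay above all untreated ones. Its log2 fold change with dilation was 0.93 ± 0.23 (adjusted p = 0.105). It was called with the library series as a term (0.78, adjusted p = 0.0284) and without the filter on low counts (adjusted p = 0.0248). In the joint fit, the difference from dilator muscle was 0.13 (95% interval -0.26 to 0.52). Gm21798 in iris PE had a log2 fold change of 1.503 ± 0.31 (adjusted p = 0.0551). The *Adcy6* effect in stroma 2 exceeded that in dilator muscle by 1.43 ± 0.22 (adjusted p = 0.000616), in iris PE by 1.07 ± 0.23 (adjusted p = 0.00943) and in stroma 1 by 1.95 ± 0.50 (adjusted p = 0.0295). Its differences from CBE (1.28 ± 0.38, adjusted p = 0.13) and CB (0.99 ± 0.48, adjusted p = 0.62) did not pass. Nor did those from sphincter 1 (0.54 ± 0.47, adjusted p = 0.79), sphincter 2 (0.42 ± 0.59, adjusted p = 0.92), leukocytes and endothelial cells.

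In the sphincter muscles no member was called. *Adcy5* stood in sphincter 1 at 134, 105 and 102 CPM in untreated and 62.7 and 73.8 in dilated libraries, without overlap (log2 fold change -0.63 ± 0.26, adjusted p = 0.355), and in sphincter 2 at 91.6, 43.7 and 40.0 CPM in untreated and 104 and 85.2 in dilated libraries, with overlap (1.05 ± 0.35, adjusted p = 0.115). The difference of the effects, sphincter 2 minus sphincter 1, passed the test at 1.68 (adjusted p = 0.00413). The *Adcy9* effect in sphincter 1 differed from that in dilator muscle by -0.73 (adjusted p = 0.0291). *Adcy9* also had the lowest unadjusted p among the 2 members tested in leukocytes (log2 fold change -0.91 ± 0.36, adjusted p = 0.309).

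With constriction, 0 of 59 combinations were called against untreated by edgeR, beside 0.0119% of all genes tested in the same cell types. An unadjusted p under 0.05 was found for 4 of the 59, and the share of all genes at that threshold is not given here. DESeq2 also called 0. The lowest adjusted p was 0.575, for *Adcy10* in sphincter 2, which stood at 9.2, 25.0 and 11.9 CPM in untreated and 58.4, 36.1 and 25.3 in constricted libraries, without overlap. Between dilated and constricted irises, the 2 calls in dilator muscle stood beside 10.5% of all genes tested there, and in the other cell types 0 of 50 combinations were called, beside 0.948%. The comparison shares its dilated libraries with that against untreated. Over all nuclei of a library, which also follows the share of each cell type, *Adcy8* was called in dilated against untreated irises (1.00 ± 0.14, adjusted p = 0.00525), 1 of 10 members beside 2.8% of all genes, and against constricted irises (0.69 ± 0.14, adjusted p = 0.0348), 1 of 10 beside 1.91%. The latter call was lost when constricted replicate 1, 2 or 3, dilated replicate 1 or 2, or untreated replicate 2 or 3 was left out, with adjusted p up to 0.216.

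The genes before and after the cyclases in the cAMP pathway were described from 10 lists with 123 genes. In dilator muscle, 25 of 86 tested genes rose and 5 fell with dilation, beside 7.2% of all genes tested there that rose and 6.14% that fell, and the count of 30 fell to 18 without dilated replicate 2. In stroma 2, 7 of 78 rose, beside 1.35% of all genes, and 0 fell by edgeR, and the count of 7 was 3 without untreated replicate 2 and 2 without untreated replicate 3. Beside the 13.3% of all genes called in dilator muscle in either direction, counts such as 1 of 9 or 2 of 12 describe the named genes and not the list. The shares of all genes come from the fits of all 8 libraries, and none is given for a fit with a library left out. Whether the falls in count are particular to the lists was not tested. The lists were chosen with earlier results of these data known.

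Upstream of the cyclases in dilator muscle, both Gs-type alpha subunits changed, in opposite directions. *Gnas*, the ubiquitous Gs-alpha, rose from 353, 381 and 383 CPM in untreated to 492 and 518 in dilated libraries (log2 fold change 0.63 ± 0.15, adjusted p = 0.016), and *Gnal*, its close relative of the olfactory system and striatum, fell from 44.3, 27.7 and 31.3 to 13.5 and 13.6 CPM (-1.11 ± 0.22). Of 9 tested Gs-coupled receptors 2 rose and 1 fell. *Htr4*, a serotonin receptor, rose by 2.09 ± 0.17 and *Calcrl*, the receptor for CGRP and adrenomedullin, by 2.84 ± 0.22, and *Vipr2*, a receptor for VIP, changed by -1.03 ± 0.20. On the inhibitory side *Chrm2*, the M2 muscarinic receptor, fell from 579 to 675 CPM in untreated to 293 and 213 CPM (1 of 9 receptors), and *Gnaz* was the 1 of 6 Gi/o-side subunits that fell, at -1.17 ± 0.32.

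Downstream of the cyclases in dilator muscle, 6 of 14 tested cAMP-hydrolysing phosphodiesterases rose and 0 fell, with *Pde10a* at 6.30 ± 0.26, *Pde3b* at 3.38 ± 0.33, *Pde7b* at 2.34 ± 0.32 and *Pde4b* at 1.67 ± 0.34. Of 14 cAMP-responsive transcription genes 9 rose, led by *Fos*, *Nr4a3*, *Nr4a2* and *Nr4a1*, which differed widely between the dilated libraries (*Fos* stood at 14.7 CPM in replicate 1 and 180 in replicate 2). The part of cAMP in these rises was not tested. Of 9 protein kinase A genes 1 rose (*Prkar1a*, 0.84 ± 0.18), of 12 anchoring proteins 2 (*Akap13*, 1.19 ± 0.15, and *Akap11*, 0.64 ± 0.16), and of 7 other cAMP effectors 2 rose (*Rapgef4*, 1.05 ± 0.16, and *Bves*, 0.76 ± 0.16) and 1 fell (*Rapgef3*, -0.73 ± 0.20). The median log2 fold change was 0.34 over the tested phosphodiesterases and 0.68 over the cAMP-responsive transcription genes, beside 0.02 for all genes tested.

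In stroma 2, the genes that rose with dilation were *Adra2a*, the Gi-coupled alpha-2A adrenergic receptor, from 22.4 to 27.8 CPM in untreated to 102 and 120.3 CPM in dilated libraries (2.16 ± 0.29, 1 of 8 such receptors), and 3 of 8 protein kinase A genes: the inhibitors *Pkia* (1.49 ± 0.23) and *Pkig* (0.86 ± 0.19) and the regulatory subunit *Prkar2b* (1.47 ± 0.23). In constricted libraries *Adra2a* stood at 65.0, 23.7 and 44.0 CPM, *Pkia* at 62.2, 33.4 and 47.2, and *Prkar2b* at 70.1, 49.5 and 48.5. *Pkig* stood there at 149.7, 98.0 and 115.4 CPM. For each of these genes both dilated libraries lay above all constricted ones. Phosphodiesterases gave 2 of 13, with *Pde10a* at 2.94 ± 0.49, and cAMP-responsive transcription 1 of 13, *Nr4a1* at 4.04 ± 0.53. *Pde10a* in stroma 2 stood at 33.4 to 40.4 CPM in untreated, 176, 645 and 167 in constricted, and 260 and 283 in dilated libraries, so that constricted replicate 2 lay above both dilated libraries. None of the 3 Gs-side subunits or 9 Gs-coupled receptors tested there was called by edgeR. Against constricted irises 2 of 78 tested genes of the lists rose in stroma 2 and 0 fell. Of the stroma 2 genes named here only *Nr4a1* was among them.

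**Figure D5:**
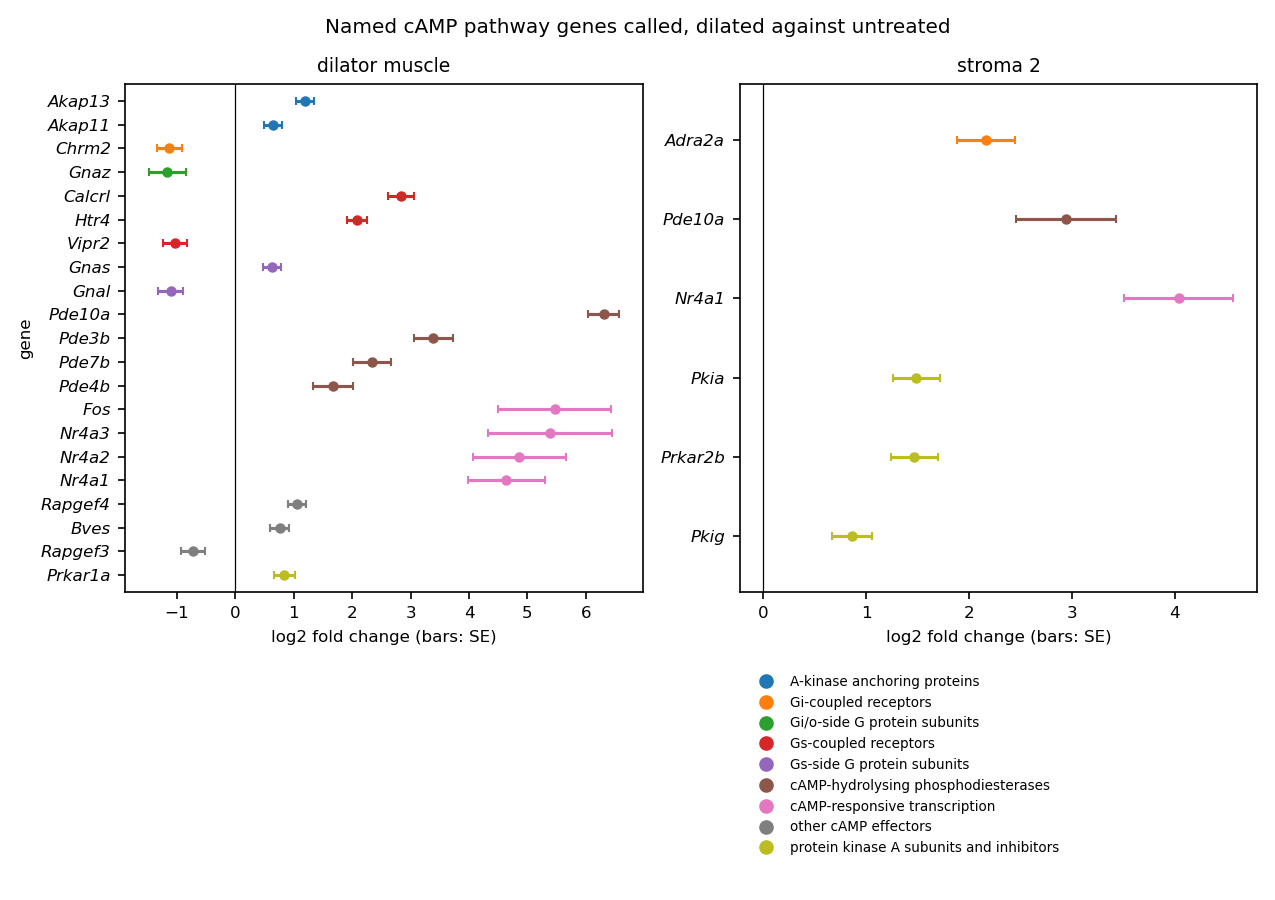
Log2 fold change (horizontal axis, bars SE), dilated against untreated, of the named pathway genes called in dilator muscle (left) and stroma 2 (right), colored by list. In dilator muscle Pde10a has the largest value, at 6.30, and Gnaz, Chrm2, Gnal, Vipr2 and Rapgef3 lie below 0; in stroma 2 all lie above 0.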

How the data were processed

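Nuclei from 8 iris libraries were profiled with the 10x Genomics Chromium v3 kit. The authors aligned reads to an mm10 pre-mRNA index with Cell Ranger 3.1.0, removed nuclei with more than 1% mitochondrial transcripts or outside 500 to 6000 transcripts, and named cell types with Seurat. They deposited raw UMI counts of each gene in each nucleus, the counts per nucleus, and the percent of mitochondrial transcripts. The deposited UMI number equalled the matrix sum in 92.1% of nuclei, and the matrix sum was used.

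Here UMI counts were added up within each cell type of a library and tested with edgeR 4.0.16 (R 4.3.3; TMM, filterByExpr, glmQLFit, glmQLFTest, two-sided). Alternatives were RLE factors, DESeq2 1.42.0, no filter, each library left out, the replicate number or library series as a term, Scrublet doublets left out (341 nuclei, 0.993%; scanpy 1.11.5), and nuclei with shared barcodes left out (added later). For levels they were the mean over nuclei, all 8 libraries and no doublets. Simulated 2-fold increases were called for 23 of 50 genes in dilator muscle and 15 of 50 in stroma 2, dilated against untreated, on counts drawn for all genes tested there. Shares of nuclei were also computed after thinning to 1000 UMIs, which left out 444 nuclei. A count of 0 allows up to 3 counts, and such limits cover counting error only. Figures were drawn with matplotlib 3.10.9, Python 3.11.15.

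The members and lists were chosen with earlier results of these data known. Named were all members, up to 4 called genes per list by absolute log2 fold change, and the 3 most similar genes per member with at least 1000 UMIs, among genes at 20 CPM or more in a cell type. The members of 1 pathway list count in the totals and are not reported here. The library series are the consecutive library numbers in the labels, 2 to 4 and 15 to 18. Library 13, constricted replicate 2, was a series of its own. With the library series as a term it therefore added nothing to the differences between conditions. The libraries came from separate pools of irises.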

Additional observations from a re-analysis of the deposited data

Results flagged for a closer look

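The dilation effect, dilated against untreated on the log2 scale, differed between cell types in 16 tests of an interaction in joint edgeR fits (adjusted over all genes of the fit). Pairs with dilator muscle gave 5 of 75 tests, beside 5.07% of all genes. Other pairs with stroma 2 gave 10 of 67, beside 1.7%, and the remaining 28 pairs gave 1 of 173, beside 0.682%. Tests of a gene that share a cell type reuse its sums and are not separate results. For *Adcy10* the effect in iris PE minus that in dilator muscle was -0.996 and the effect in stroma 2 minus that in dilator muscle was -1.15. For *Adcy2* the effect in stroma 2 exceeded that in stroma 1 by 2.0, in sphincter 1 by 2.17, in iris PE by 1.69, in CBE by 1.74, in dilator muscle by 1.8, in sphincter 2 by 1.27 and in CB by 1.6. Endothelial cells minus stroma 2 gave -4.24 and leukocytes minus stroma 2 gave -2.8. Both come from few UMIs, in cell types where *Adcy2* could not be tested alone, and cannot decide whether the effects differ. For *Adcy6* the effect in stroma 2 exceeded that in dilator muscle by 1.43, in iris PE by 1.07 and in stroma 1 by 1.95. For *Adcy5* the effect in sphincter 2 exceeded that in sphincter 1 by 1.68, and for *Adcy9* the effect in sphincter 1 minus that in dilator muscle was -0.733.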

How the results depend on the processing

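The calls of *Adcy8* and *Adcy10* in dilator muscle against untreated and constricted irises held under all 15 alternatives with a test, with log2 fold changes of 0.80 to 0.99 and 1.17 to 1.36 against untreated. The number of member calls, dilated against untreated, was 4 and ranged from 2 to 4 with a library left out, and it was 5 without the filter on low counts (*Adcy8* in iris PE added) and 6 with the library series as a term (*Adcy8* in iris PE and *Adcy1* in dilator muscle added). With a dilated library left out, the lone one was assumed to vary like the other groups. Against constricted irises it was 2, 4 without the filter on low counts (*Adcy2* and *Adcy6* in stroma 2 added), 3 with the library series as a term (*Adcy6* in stroma 2 added), and 2 to 3 with a library left out. It was 0 to 0 for constricted against untreated, and 2 for all nuclei (1 to 2, and 3 with DESeq2 or the series term, *Adcy10* added). Pathway calls numbered 30 in dilator muscle (18 to 31) and 7 in stroma 2 (2 to 9), where they were 15 without the filter and 16 with the library series as a term. The differences between cell types that passed numbered 15 in pairs with dilator muscle or stroma 2 (8 to 15). The cell type with the highest level was the same for 8 to 9 of 10 members with an untreated library left out. *Adcy2* led the cyclase UMIs in 4 cell types as counted and in 0 per kilobase; this is a change of scale. Except for that scale, causes were not tested. The replicate numbers did not pair the libraries: in dilator muscle 5 of 7 same-number pairs correlated at 0.185 to 0.424 and lay in the same library series, while constricted replicate 2 correlated at -0.0184 with untreated and -0.036 with dilated replicate 2. Pairs of the same series with different numbers correlated at 0.181 to 0.425. Each condition was centered on its own mean before this. Correlations with the 2 dilated libraries are thus equal in size and opposite in sign, and are not separate evidence on pairing. With the replicate block 4 members were called. Shares of all genes called are given for the main fits only. The counts of calls under the alternatives therefore describe the members and lists, and whether other genes moved alike was not tested. Depth limits rare cell types, where no member of endothelial cells and 2 of leukocytes could be tested.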
